A study of Mus musculus with 9 samples.

Results

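Neurog1, Neurog2, Neurog3, Neurod1, Neurod4, Atoh1, Ebf1, Ebf2 and Ebf3 encode transcription factors of the helix-loop-helix type that act as neural progenitors turn into neurons. These 9 genes were chosen by their exact symbols out of the 38197 symbols measured, and all 9 were in the table. Of them 8 passed the filter on low counts and were tested, and Atoh1 did not. The sequenced RNA came from wild type mouse embryonic stem cells of strain 129 that had been differentiated as a monolayer with retinoic acid (RA) and SAG, an agonist of the Shh pathway component Smoothened. The label gives both only for the days up to 3DDC, so all libraries come from cells after their withdrawal. Every group had the same genotype and treatment, and cells carrying Prominin-1 on their surface, as neural progenitors do, were isolated by a magnetic sort. DDC stands for days in differentiation conditions, and 3 libraries each were made from cells of 4.5DDC, of 5.5DDC and of 6.5DDC. A second label of the samples rounds these times to whole days, and the times in the titles were used. The libraries held between 11066572 and 25506192 counts. The labels do not say whether replicates were separate cultures, so the p-values measure the spread between these libraries, which may be technical.

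The basic helix-loop-helix (bHLH) proteins of the Neurogenin, NeuroD and Atonal families bind E-boxes in DNA as partners of E proteins, and their activity is held back by Id proteins and by Notch signalling. Neurogenins and Atoh1 are proneural factors that commit a progenitor to become a neuron, whereas NeuroD proteins act later, while the neuron differentiates. Ebf proteins belong to the COE family, whose helix-loop-helix domain lacks the basic region, so that Ebf1, Ebf2 and Ebf3 are neurogenic factors but not bHLH factors in the strict sense.

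The sorted cells carried the markers of neural progenitors. All 9 progenitor markers listed (Sox1, Sox2, Sox3, Sox9, Nes, Vim, Prom1, Fabp7 and Msi1) were detected, and Vim, which encodes an intermediate filament protein, was the most abundant. Their summed level was 2341, 2684 and 2228 FPKM (fragment counts scaled to transcript length and sequencing depth) in replicates 1, 2 and 3 at 4.5DDC. It was 3238, 2876 and 3151 FPKM at 5.5DDC and 3115, 3011 and 3178 FPKM at 6.5DDC. Vim alone was at 1706, 1764 and 1235 FPKM in these replicates at 4.5DDC. At 5.5DDC Vim was at 2455, 1728 and 1950 FPKM, and at 6.5DDC at 1885, 1508 and 1890 FPKM. Most of the sum was thus Vim, and the sum says little of the other progenitor markers. Prom1 itself, which encodes the sorted protein, had a mean of 79.1 ± 14.3 FPKM (SD, n = 3) in the libraries of 4.5DDC and of 183 ± 27.2 FPKM in those of 6.5DDC.

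The libraries of replicate 1 stood apart from the others at every time point. On the axis of a principal component analysis that carried 27.2% of the variance, they lay at 23.9, 54.5 and 49.3, and the libraries of replicates 2 and 3 lay between −44.6 and −3.12. Markers of postmitotic neurons, of which 15 were measured, differed in the same way between replicates. Their summed level was 288 FPKM in replicate 1 against 803 and 527 FPKM in replicates 2 and 3 at 4.5DDC, 246 against 954 and 959 FPKM at 5.5DDC, and 517.2 against 1113 and 1190 FPKM at 6.5DDC. Gap43, a growth cone protein, had the highest mean over the 9 libraries together but not at 4.5DDC or 6.5DDC alone, where Nefm and Stmn2 had the highest, and none of the 15 was at 0 in every library. Results are therefore given with all 9 libraries, and those of the members also with replicates 2 and 3 alone. In bulk RNA, fewer cells of a type and less RNA per cell cannot be told apart, and the part of neurons that remained after the sort in the values below was not tested.

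**Figure D1:**
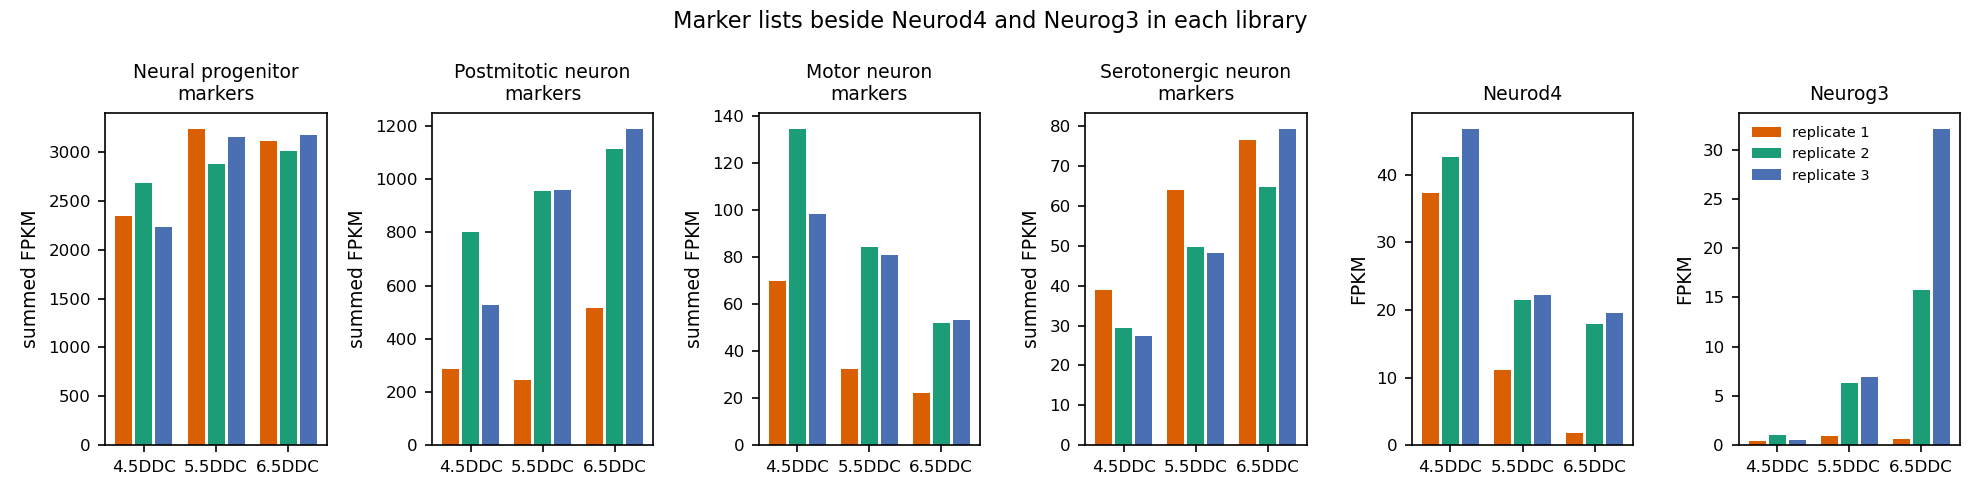
Summed FPKM of 4 marker lists and FPKM of Neurod4 and Neurog3, with 1 bar for each library, grouped by time point and coloured by replicate. Replicate 1 was lowest for postmitotic neuron and motor neuron markers and for Neurod4 and Neurog3 at each time point. The progenitor sum, most of which was Vim, was of similar height in the 3 replicates, and it says little of the other progenitor markers.

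With all 9 libraries and no replicate block, Neurog3 was the only member that rose in edgeR. Neurog3 is known as the factor that starts endocrine cell formation in the pancreas, and in the ventral neural tube it is known for limiting the generation of serotonergic neurons to the hindbrain. Its level was 0.377, 1.05 and 0.504 FPKM in replicates 1, 2 and 3 at 4.5DDC. It was 0.882, 6.30 and 6.96 FPKM at 5.5DDC and 0.579, 15.7 and 32.1 FPKM at 6.5DDC. The replicates 2 and 3 were thus higher at each later time point, while replicate 1 stayed under 1 FPKM throughout, and the groups overlapped in FPKM in all pairs of time points. From 4.5DDC to 6.5DDC Neurog3 rose by 4.61 (SE 1.24) on the log2 scale, with a p of 0.0305 after Benjamini-Hochberg adjustment over all genes, where a p under 0.05 counts as passed. Within replicates, the difference in log2 CPM (counts scaled to library size) was 0.49, 3.85 and 5.63, so it was positive in 3 of 3 and small in replicate 1. No pairing was assumed for these 2 time points, so this count of signs depends on how libraries are matched. The rise was 4.87 with replicates 2 and 3 alone, with an adjusted p of 0.000392. The call was lost when any of 5 libraries was left out, with an adjusted p of 0.0824, 0.0846 and 0.0861 without replicate 1, 2 or 3 at 4.5DDC, and of 0.0748 and 0.0733 without replicate 2 or 3 at 6.5DDC. It was also lost with limma voom (0.237) and with limma on log2 FPKM (0.11 and 0.113), and adjusted p-values over the 20 alternatives lay between 0.000392 and 0.237.

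The difference in Neurog3 had the same sign in both intervals. It was 2.78 (SE 1.19, adjusted p = 0.308) from 4.5DDC to 5.5DDC and 1.84 (SE 1.06, adjusted p = 0.371) from 5.5DDC to 6.5DDC with all libraries, neither of which passed. Both passed with replicates 2 and 3 alone, at 2.98 (adjusted p = 0.018) and 1.89 (adjusted p = 0.0273), and over the alternatives the adjusted p lay between 0.018 and 0.657 in the first interval and between 0.0273 and 0.722 in the second. With a block for the replicate number and all libraries they were 2.49 (adjusted p = 0.122) and 1.41 (adjusted p = 0.223), and neither passed. In replicate 1, the difference from 5.5DDC to 6.5DDC was −0.58, against 1.42 and 2.20 in replicates 2 and 3.

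Markers of pancreatic endocrine cells, the other setting in which Neurog3 is known, were at low levels. Of 8 endocrine markers, Pdx1, Ins1, Ins2 and Gcg were at 0 in all libraries, and only Chga, a secretory granule protein that neurons also make, passed the filter, at 3.41 FPKM at 4.5DDC and 4.62 FPKM at 6.5DDC. Over the whole list the summed level was between 1.41 and 12.97 FPKM.

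The Neurog3 gene lies at chr10:62133090-62134763 on the plus strand of GRCm38. On the opposite strand, exons of Fam241b cover 16.3% of its exonic bases in GENCODE M21. Fam241b, which the table lists under an older symbol, had between 62 and 304 counts per library, and whether reads of the pair were told apart by strand is not given, so that their reads cannot be told apart here. The promoters of Neurog3, of its relative Neurog2 and of Neurod4 are shown, as an example of a member whose mean was highest at 6.5DDC and of 2 whose mean was highest at 4.5DDC. They are the 250 bases before the start in RefSeq (GRCm38.p6), 5′ to 3′ on the strand of the gene, and matches to the E-box CAGCTG and to CCCNNGGG, the core of Ebf sites, are in capitals.

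Neurog3, chr10:62132840-62133089, plus strand: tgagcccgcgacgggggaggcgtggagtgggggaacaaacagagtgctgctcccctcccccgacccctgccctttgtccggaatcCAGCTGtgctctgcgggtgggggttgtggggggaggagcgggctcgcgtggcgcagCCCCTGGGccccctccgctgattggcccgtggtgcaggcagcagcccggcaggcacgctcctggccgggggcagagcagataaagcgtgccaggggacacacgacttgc

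Neurog2, chr3:127632886-127633135, plus strand: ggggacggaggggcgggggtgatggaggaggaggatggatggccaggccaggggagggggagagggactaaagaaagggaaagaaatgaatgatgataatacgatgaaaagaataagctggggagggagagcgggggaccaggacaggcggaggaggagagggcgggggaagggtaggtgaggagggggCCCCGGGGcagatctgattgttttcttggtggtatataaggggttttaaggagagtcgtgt

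Neurod4, chr10:130280255-130280504, minus strand: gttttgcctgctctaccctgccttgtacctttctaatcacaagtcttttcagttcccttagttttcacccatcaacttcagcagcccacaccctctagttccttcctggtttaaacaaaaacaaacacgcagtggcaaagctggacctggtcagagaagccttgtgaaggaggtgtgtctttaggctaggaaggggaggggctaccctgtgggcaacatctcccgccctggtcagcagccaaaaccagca

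The Neurog3 promoter held 1 CAGCTG, which begins at −165 from the start, and 1 CCCNNGGG, which begins at −109. The Neurog2 promoter held 1 CCCNNGGG at −61, and that of Ebf3 held 1 at −21. A match is given as a description of the letters only. The upstream part of the Neurod4 promoter held none of these letters, and a second annotated start of Neurod4 had 1 CAGCTG that begins 4 bases past that start. The third motif searched was the E-box CAGATG with its reverse complement CATCTG, and none of the 10 windows of 300 bases (250 before to 50 after a start) that 8 members had contained it. Both strands were searched, and no matches overlapped. Of the 32851 promoter windows of the same length in the table, 16.3% held CAGCTG, 17.2% held CAGATG or CATCTG and 13.7% held CCCNNGGG. No promoter entry matched Ebf2.

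Neurog1 and Neurog2, the Neurogenins that are known for specifying neurons in the sensory ganglia and in the spinal cord and hindbrain, were present at low levels. Neurog1 was at 0.375, 1.75 and 0.498 FPKM in replicates 1, 2 and 3 at 4.5DDC, at 0.101, 0.583 and 0.564 FPKM at 5.5DDC, and at 0.0409, 0.156 and 0.227 FPKM at 6.5DDC. These levels rest on between 1 and 39 counts per library, and the groups at 4.5DDC and 6.5DDC did not overlap. The difference from 4.5DDC to 6.5DDC was −2.59 (SE 0.84) on the log2 scale and missed the threshold, with an adjusted p of 0.0585. It had the same sign in 3 of 3 replicates, as any matching of groups that do not overlap gives. Neurog1 fell by 2.57 with replicates 2 and 3 alone (adjusted p = 0.0178). Leaving out 1 library also brought it past the threshold, with an adjusted p of 0.0484 without replicate 1 at 4.5DDC and of 0.031 without replicate 1 at 5.5DDC. So did DESeq2 at 0.0252 and a block for the replicate number at 0.0106. Over the 20 alternatives its adjusted p lay between 0.0106 and 0.23.

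Neurog2 was at 0.104, 1.66 and 0.871 FPKM at 4.5DDC, at 0.102, 0.517 and 0.643 FPKM at 5.5DDC, and at 0, 0.336 and 0.374 FPKM at 6.5DDC. Replicate 1 was the lowest at each time point, and its library at 6.5DDC had no count, which allows up to 0.233 CPM (3 counts, counting error only). The groups overlapped. The difference from 4.5DDC to 6.5DDC was −1.85 (SE 1.08, adjusted p = 0.247) with all libraries. With replicates 2 and 3 alone Neurog2 fell by 1.86 with an adjusted p of 0.0105. With a block for the replicate number the difference was −1.89 and passed (adjusted p = 0.026). Over the 20 alternatives the adjusted p lay between 0.0105 and 0.621.

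Atoh1, the proneural factor of the rhombic lip and of dorsal interneurons, had no count in any of the 9 libraries. At their depth this allows between 0.118 and 0.271 CPM per library. Markers of dorsal interneurons and the rhombic lip were likewise low. The 8 markers summed to between 2.32 and 4.82 FPKM, of which Pou4f1, also a marker of sensory neurons, was the most abundant, and none of the 3 that could be tested passed in any pair of time points.

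Neurod4, which acts in differentiating neurons, had the highest level of the 9 members at 4.5DDC and 5.5DDC. It was at 37.3, 42.6 and 46.8 FPKM in replicates 1, 2 and 3 at 4.5DDC, at 11.2, 21.4 and 22.2 FPKM at 5.5DDC, and at 1.78, 17.9 and 19.6 FPKM at 6.5DDC. All libraries of 5.5DDC and 6.5DDC were below all of 4.5DDC, and the library of replicate 1 at 6.5DDC was far below the others. From 4.5DDC to 6.5DDC the difference was −1.72 (SE 0.64) with an adjusted p of 0.0858 and did not pass. With a block for the replicate number the difference was −2.10 and passed (adjusted p = 0.0162). Within replicates 1, 2 and 3 the difference in log2 CPM was −4.31, −1.21 and −1.39. The sign was thus the same in 3 of 3, as any matching of groups that do not overlap gives. The difference was largest in replicate 1. Without replicate 1 at 6.5DDC Neurod4 fell by 1.21 (adjusted p = 0.0193), and with replicates 2 and 3 alone it fell by 1.31 (adjusted p = 0.000757). With those libraries Neurod4 fell by 1.09 in the first interval (adjusted p = 0.0156), and the difference of −0.21 from 5.5DDC to 6.5DDC did not pass (adjusted p = 0.397). With the replicate block and all libraries these differences were −1.38 (adjusted p = 0.178) and −0.72 (adjusted p = 0.402), and neither passed. Over the 20 alternatives the adjusted p lay between 0.000757 and 0.171 from 4.5DDC to 6.5DDC, between 0.0156 and 0.643 in the first interval and between 0.397 and 0.936 in the second. The difference between the 2 intervals was itself tested in edgeR, where 0 members passed and 0 had an unadjusted p under 0.05, beside 701 of the 14742 genes, and DESeq2 and limma called 0. With replicates 2 and 3 alone 0 members passed in this test, and Neurod4 and Ebf3 had an unadjusted p of 0.00693 and 0.0478, beside 889 of 14638 genes under 0.05. The study had put Neurod4 and Ebf2 on a list of genes titled biphasic, repressed by cyclopamine (a Smoothened antagonist) and bound by Gli proteins. A fall from an early peak to 6.5DDC was among its criteria, with data that may include those used here. The direction of both is thus not independent evidence.

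Neurod1, which promotes neuronal survival and differentiation, was at 2.23, 3.00 and 1.72 FPKM at 4.5DDC, at 1.004, 2.15 and 2.38 FPKM at 5.5DDC, and at 0.283, 3.02 and 4.98 FPKM at 6.5DDC. The groups overlapped in each pair, and the 3 libraries of 6.5DDC spanned the range of all others. The difference from 4.5DDC to 6.5DDC was 0.23 (SE 0.71, adjusted p = 0.844) and 0.72 with replicates 2 and 3 alone (adjusted p = 0.120), and within replicates it was −2.77, 0.04 and 1.39. Its sign turned in 5 of 20 alternatives. Exons of Gm26755 on the other strand cover 5.64% of the exonic bases of Neurod1, and exons of Cerkl on the same strand, which had between 3 and 29 counts per library, cover 7.37%.

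**Figure D2:**
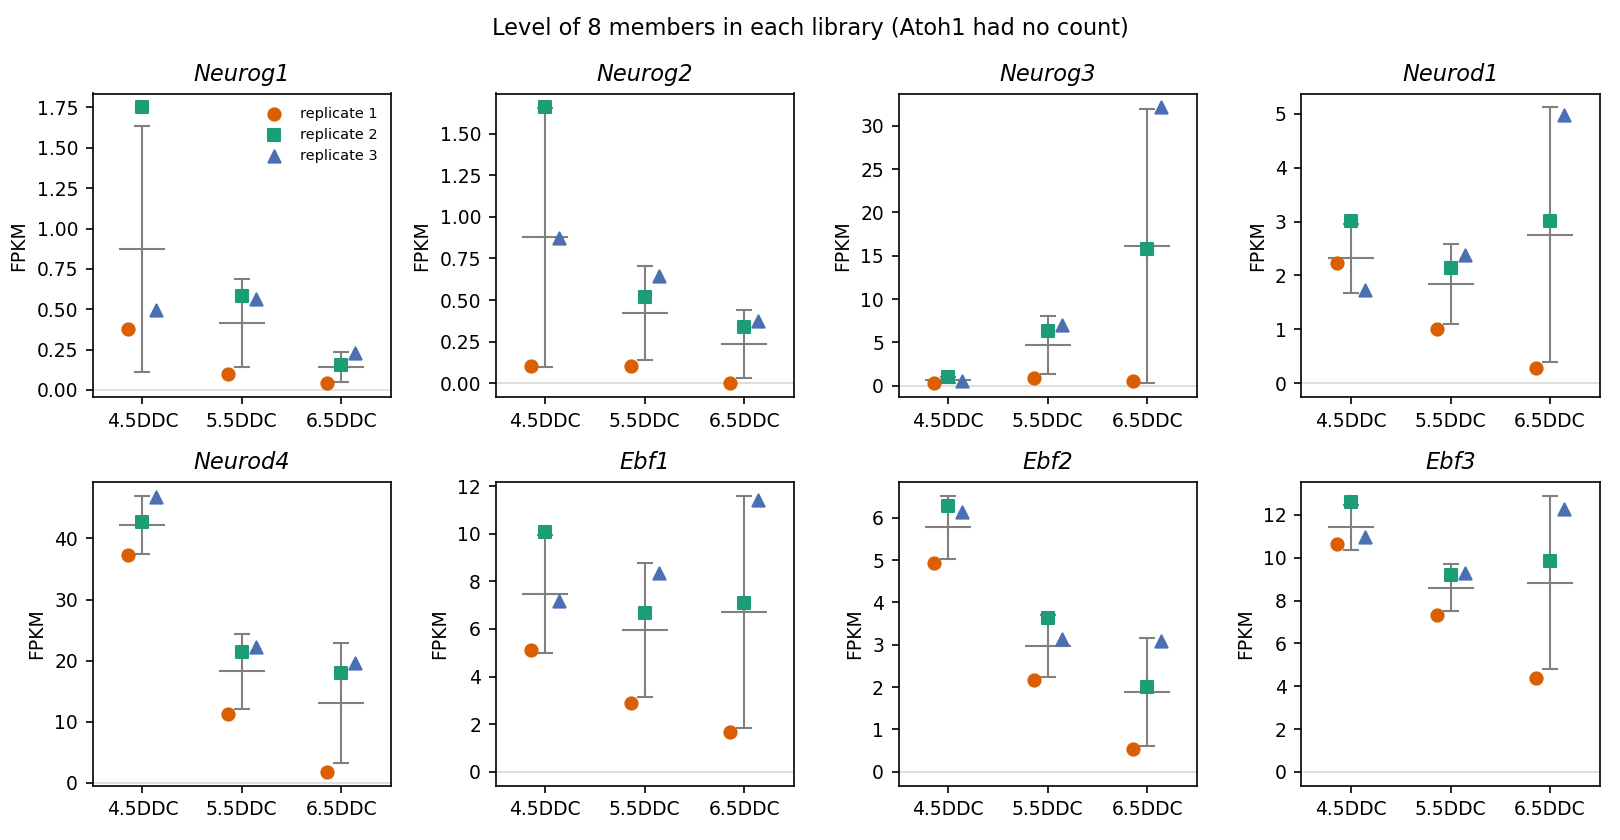
FPKM of the 8 detected members in each library at 4.5DDC, 5.5DDC and 6.5DDC, with points shaped and coloured by replicate, a grey line for the mean and bars for the SD (n = 3). Neurog3 reached 15.7 and 32.1 FPKM in replicates 2 and 3 at 6.5DDC and 0.579 FPKM in replicate 1, and Neurod4 was above 37 FPKM in each library of 4.5DDC and below 23 FPKM in the others.

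Among the members, only Ebf2 fell in edgeR with all 9 libraries and no replicate block. It is an Ebf factor known for roles in neuronal migration and differentiation. Its gene lies at chr14:67233292-67430918 on the plus strand. Its level was 4.92, 6.26 and 6.14 FPKM in replicates 1, 2 and 3 at 4.5DDC, 2.18, 3.62 and 3.13 FPKM at 5.5DDC, and 0.547, 2.01 and 3.09 FPKM at 6.5DDC. Each library of 4.5DDC was above all others, and those of 5.5DDC and 6.5DDC overlapped. From 4.5DDC to 6.5DDC Ebf2 fell by 1.66 (SE 0.46) on the log2 scale, with an adjusted p of 0.0349. It was lower in 3 of 3 replicates, as any matching of groups that do not overlap gives. It fell by 1.37 with replicates 2 and 3 alone (adjusted p = 0.0029). The call was lost without replicate 2 or 3 at 4.5DDC (adjusted p of 0.0952 and 0.0788), without replicate 3 at 5.5DDC (0.0539), without replicate 2 at 6.5DDC (0.0931) and in a fit of the 6 libraries compared (0.0592). Over the 20 alternatives its adjusted p lay between 0.00228 and 0.0952. Exons of Gm10860 on the other strand cover 6.12% of the exonic bases of Ebf2, and Gm10860 had no count.

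Ebf3 had the highest mean of the 3 Ebf genes at each time point. It was at 10.6, 12.6 and 10.98 FPKM at 4.5DDC, at 7.34, 9.17 and 9.29 FPKM at 5.5DDC, and at 4.37, 9.85 and 12.3 FPKM at 6.5DDC. The groups of 4.5DDC and 5.5DDC did not overlap, but the difference of −0.41 (SE 0.29, adjusted p = 0.543) did not pass, and from 4.5DDC to 6.5DDC it was −0.35 (SE 0.29, adjusted p = 0.422). With replicates 2 and 3 alone these differences were −0.35 (adjusted p = 0.223) and −0.10 (adjusted p = 0.617), and with libraries left out the second ranged from −0.61 to −0.043. With a block for the replicate number the first was −0.42 (adjusted p = 0.35). Exons of Gm45278 on the other strand, which the table does not list, cover 3.85% of the exonic bases of Ebf3.

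Ebf1, known as a factor of B cell development that is also expressed in early neurons, was at 5.12, 10.1 and 7.18 FPKM at 4.5DDC, at 2.88, 6.66 and 8.35 FPKM at 5.5DDC, and at 1.66, 7.07 and 11.4 FPKM at 6.5DDC. Replicate 1 was the lowest at each time point and the groups overlapped. The difference from 4.5DDC to 6.5DDC was 0.13 (SE 0.54, adjusted p = 0.883), and 0.27 with replicates 2 and 3 alone (adjusted p = 0.222). Within replicates 1, 2 and 3 the difference was −0.62, 0.12 and 0.43, and the sign of the fitted difference turned in 6 of 20 alternatives. The mean in FPKM was lower at 6.5DDC (6.71) than at 4.5DDC (7.46). Ebf1 was among 98 symbols whose counts were not whole, so its level may not be comparable with that of other genes. Of 6 B lymphoid markers none passed the filter, Cd79b was at 0 in all libraries, and the list summed to between 0.308 and 2.26 FPKM.

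In the order of the mean levels in FPKM, Neurod4 came first at 4.5DDC with 42.2 ± 4.74 FPKM (SD, n = 3), ahead of Ebf3 with 11.4 ± 1.05 FPKM, and every library of Neurod4 was above every library of Ebf3. Ebf1 with 7.46 ± 2.49 FPKM and Ebf2 with 5.78 ± 0.741 FPKM followed and overlapped. Neurod1 was at 2.32 ± 0.643 FPKM, and Neurog2, Neurog1 and Neurog3, which overlapped, were at 0.878 ± 0.777, 0.875 ± 0.761 and 0.645 ± 0.360 FPKM. At 5.5DDC Neurod4 with 18.3 ± 6.15 FPKM was again above Ebf3 with 8.60 ± 1.10 FPKM in every library. Ebf1 with 5.96 ± 2.80 FPKM, Neurog3 with 4.72 ± 3.34 FPKM and Ebf2 with 2.98 ± 0.734 FPKM overlapped, and Neurod1, Neurog2 and Neurog1 came last. At 6.5DDC Neurog3 came first with 16.1 ± 15.8 FPKM, followed by Neurod4 with 13.1 ± 9.82 FPKM and Ebf3 with 8.84 ± 4.06 FPKM, which overlapped. This order of the means rested on replicate 3, where Neurog3 was at 32.1 FPKM and Neurod4 at 19.6 FPKM. Neurod4 was above Neurog3 in replicate 1 (1.78 against 0.579 FPKM) and in replicate 2 (17.9 against 15.7 FPKM).

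Counted over the members, 2 of the 8 tested passed from 4.5DDC to 6.5DDC with no replicate block. Of the 14742 genes tested 18.7% passed there, so the share of the members was close to that of all genes in this fit. With a block for the replicate number, although no pairing was assumed for this pair, 5 members passed, beside 3418 of the 14742 genes. With no block, the number of members was 0 without replicate 2 at 4.5DDC (beside 1152 of 15140 genes) or replicate 3 at 4.5DDC (2027 of 15082). It was also 0 without replicate 2 at 6.5DDC (1125 of 14872). It was 1 without replicate 3 at 5.5DDC (2037 of 15169) or 6.5DDC (2063 of 14833). DESeq2 called 3 members, beside 3681 genes, and limma voom 1, beside 2660 genes. The number of all genes, 2763, became 1152 without replicate 2 at 4.5DDC and 1125 without replicate 2 at 6.5DDC. None passed from 4.5DDC to 5.5DDC, where 0.0746% of all genes passed, or from 5.5DDC to 6.5DDC, where 0.224% passed. These shares are 11 and 33 genes. The 11 became 3 and 1 without replicate 2 or 3 at 4.5DDC, 7 and 1 without replicate 2 or 3 at 5.5DDC, and 28 and 5 without replicate 1 or 2 at 6.5DDC. The 33 became 1 and 13 without replicate 1 or 3 at 4.5DDC, 4, 0 and 0 without replicate 1, 2 or 3 at 5.5DDC, and 196, 0 and 0 without replicate 1, 2 or 3 at 6.5DDC. At an unadjusted p under 0.05 edgeR had 1 member in the first interval, beside 2275 of the 14742 genes, and 0 in the second, beside 2733 genes, and DESeq2 and limma called no member in either. In a paired model with a block for the replicate number, the share of all genes that passed was 1.44% in the first interval and 1.32% in the second, and no member passed. At an unadjusted p under 0.05 this paired model had 4 members in the first interval, beside 2628 of the 14742 genes. In the second interval it had 3, beside 3080 genes. In the test for any difference between the 3 time points no member passed at an adjusted p under 0.05, beside 9.63% of all genes, and limma called 0. With the block for the replicate number Ebf2, Neurog3, Neurog1 and Neurod4 passed in this test (adjusted p of 0.0137, 0.0178, 0.0301 and 0.0365), beside 2180 of the 14742 genes. At an unadjusted p under 0.05 edgeR had 4 members without the block, beside 4242 of the 14742 genes. With the block it had 5 members, beside 4694 genes. DESeq2, without a block, called 2 members, beside 2976 genes. Without replicate 1 at 6.5DDC 3 members passed, beside 1831 of 15145 genes. The 1420 genes behind the share of 9.63% became 437 and 685 without replicate 2 or 3 at 4.5DDC, 755 and 763 without replicate 2 or 3 at 5.5DDC, and 323 and 942 without replicate 2 or 3 at 6.5DDC. The libraries of 2 time points did not overlap in FPKM for 3 members from 4.5DDC to 5.5DDC, where 23.8% of all genes did not overlap, for none from 5.5DDC to 6.5DDC (24.0%) and for 3 from 4.5DDC to 6.5DDC (34.5%). An exact two-sided permutation test of 3 libraries against 3 cannot give a p under 0.1. The members that passed without replicate 1 numbered 2 in the first interval (3.31% of all genes), 1 in the second (4.97%) and 5 from 4.5DDC to 6.5DDC (31.3%).

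**Figure D3:**
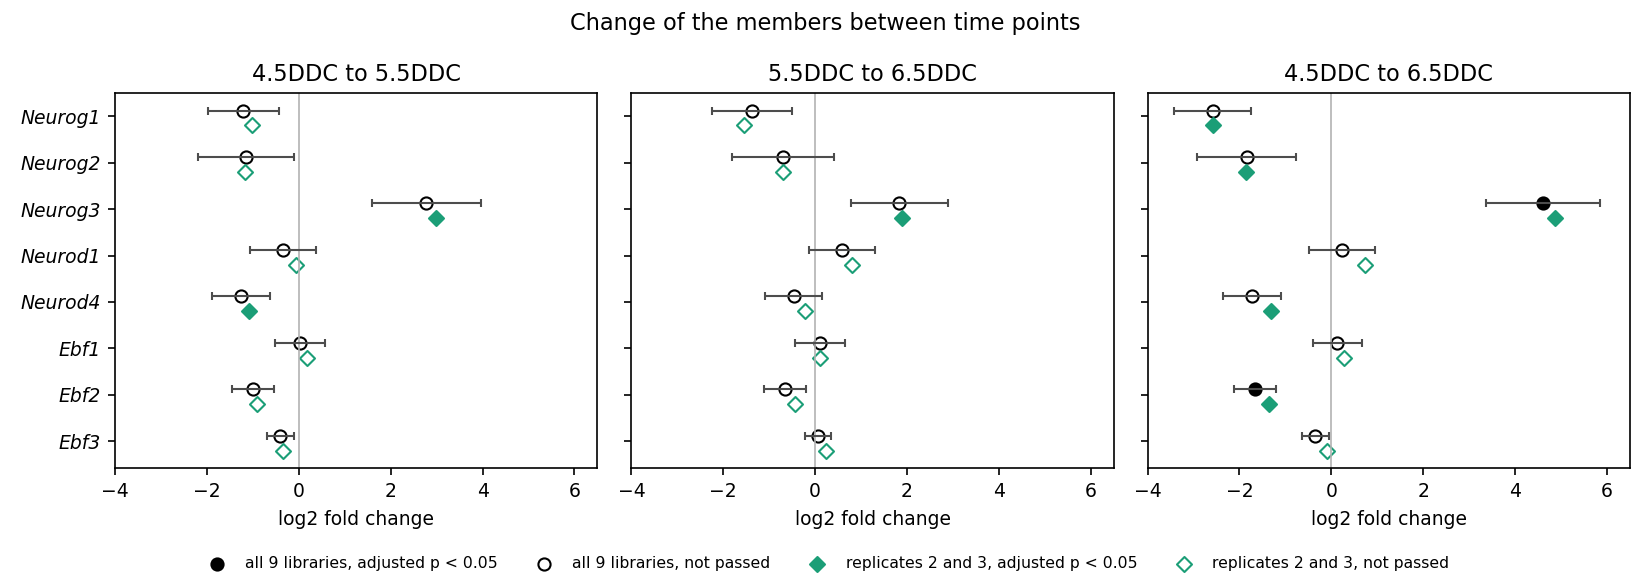
Log2 fold change of 8 members for each pair of time points, from all 9 libraries (circles, bars for the SE) and from replicates 2 and 3 alone (diamonds), with filled symbols where the adjusted p was under 0.05. With all libraries and no replicate block, Neurog3 (4.61) and Ebf2 (−1.66) passed, both from 4.5DDC to 6.5DDC.

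Genes with the most similar pattern were sought for each member among 12410 genes, by the Pearson correlation of log2 CPM over the 9 libraries, which share the differences between replicates described above. For Neurog3 they were Celf5 (r = 0.984), Irgq (0.981) and Celf4 (0.976). Celf4 and Celf5 encode RNA-binding proteins of neurons. For Neurod4 they were St18 (0.986), Ebf2 (0.981) and 9430008C03Rik (0.977), and for Ebf2 they were St18 (0.984), Ankrd10 (0.982) and Mir17hg (0.981). For Neurod1 they were Nhlh1 (0.981), itself a bHLH factor of newly born neurons, Igfbpl1 (0.975) and Gal (0.969). For Neurog1 they were Rps6ka2 (0.980), Lsm14b (0.975) and Hira (0.975), and for Neurog2 they were Tns1 (0.972), Khdrbs3 (0.966) and Efna5 (0.963). For Ebf1 they were Clvs1 (0.991), Hoxc5 (0.990) and Hoxa3 (0.990), and for Ebf3 they were Sncaip (0.979), Zbtb18 (0.968) and Limch1 (0.964). Among the members themselves, Neurod4 had r = 0.981 with Ebf2 and 0.934 with Ebf3, whereas Neurog3 had r = 0.704 with Ebf1, 0.614 with Neurod1, 0.340 with Ebf3, 0.296 with Neurog2, 0.0665 with Neurod4, −0.0422 with Neurog1 and −0.0445 with Ebf2.

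Other proneural and neuronal bHLH genes gave 1 gene that passed from 4.5DDC to 6.5DDC out of 9 tested. Their median log2 fold change was −0.89, beside 0.0040 over all genes tested. Without replicate 1 at all time points the median was −0.28, beside −0.019 over all genes tested. Ferd3l, a bHLH factor of the floor plate region, rose by 1.92 (SE 0.33, adjusted p = 0.00563), from 19.5 ± 6.08 FPKM to 72.3 ± 27.6 FPKM. Olig2, a factor of motor neuron progenitors, was at 5.00 ± 4.73 FPKM and 0.673 ± 0.704 FPKM and did not pass (adjusted p = 0.115). In the fit without replicate 1 Ferd3l rose, and Bhlhe22, Olig1 and Olig2 were among the genes that fell. Ptf1a and Atoh7 were at 0 in all libraries. Counts in this and the following lists stand beside 18.7% of all genes that passed from 4.5DDC to 6.5DDC. Without replicate 1 this share was 31.3%.

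Of the 7 genes for E protein partners and Id inhibitors, all of which were tested, 1 fell from 4.5DDC to 6.5DDC and the median was −0.56. This gene was Tcf3, an E protein that pairs with proneural factors, which fell by 1.499 (SE 0.34, adjusted p = 0.0164) from 49.3 ± 22.7 FPKM to 17.1 ± 5.69 FPKM. Tcf12, the most abundant of the list, was at 74.2 and 75.4 FPKM at these time points. The call was lost without replicate 2 at 4.5DDC (adjusted p = 0.0609) or 6.5DDC (0.0688). Without replicate 1, Tcf3, Id1 and Id2 fell and Id4 rose.

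Through the Notch pathway neighbouring cells keep one another from differentiating. Beside 18.7% of all genes that passed from 4.5DDC to 6.5DDC, 2 of 16 Notch pathway genes fell and none rose, with a median of −0.53. They were Lfng, which fell by 1.02 (SE 0.28, adjusted p = 0.0345), and Mfng, which fell by 1.34 (SE 0.34, adjusted p = 0.0237), both glycosyltransferases that modify Notch receptors. Hes1, a target of Notch that represses proneural genes, was at 47.3 ± 5.42 FPKM and 52.1 ± 12.9 FPKM, and Hes5, another, was at 5.69 ± 6.23 FPKM and 1.14 ± 0.664 FPKM, and neither passed (adjusted p of 0.683 and 0.0522). Mfng did not pass without replicate 2 at 4.5DDC (0.0882), or without replicate 1 or 2 at 6.5DDC (0.0519 and 0.0915). Lfng did not pass without replicate 1 or 2 at 4.5DDC (0.0678 and 0.124), replicate 2 or 3 at 5.5DDC (0.052 and 0.0501) or replicate 2 at 6.5DDC (0.112), nor with limma voom (0.0508) or limma on log2 FPKM (0.0556 and 0.0547). In a fit of the 6 libraries compared neither passed (0.0532 for Mfng and 0.0607 for Lfng). Without replicate 1 at all time points, Notch2 and Heyl rose, Mfng and Jag1 fell and Lfng did not pass (0.0501).

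Among Ebf relatives and cofactors, Zfp423, a zinc finger protein that binds Ebf proteins, fell by 1.02 (SE 0.26, adjusted p = 0.0257), while Ebf4 and Zfp521 did not pass, and the median of the 3 was 0.03. Zfp423 did not pass with replicates 2 and 3 alone (adjusted p = 0.0611), nor without replicate 1 or 2 at 4.5DDC (0.0626 and 0.0917) or at 6.5DDC (0.055 and 0.0971), nor with limma on log2 FPKM (0.0581 and 0.0571).

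Of 11 neurogenic cascade genes tested, Btg2, an antiproliferative gene of neurogenic divisions, rose by 0.48 (SE 0.14, adjusted p = 0.0413). St18 fell by 1.07 (SE 0.32, adjusted p = 0.0452) and Rcor2 fell by 0.72 (SE 0.21, adjusted p = 0.0388), and the median was −0.24. St18 encodes a zinc finger factor of the Myt1 family that is expressed in differentiating neurons, and Rcor2 encodes a corepressor of the REST complex. These 3 calls lay near the threshold. Btg2 did not pass without replicate 1, 2 or 3 at 4.5DDC (0.101, 0.127 and 0.0661), replicate 2 or 3 at 5.5DDC (0.0725 and 0.0716) or replicate 1, 2 or 3 at 6.5DDC (0.0862, 0.0612 and 0.0562). St18 did not pass without replicate 1, 2 or 3 at 4.5DDC (0.063, 0.105 and 0.109), replicate 2 or 3 at 5.5DDC (0.0643 and 0.068) or replicate 2 or 3 at 6.5DDC (0.0691 and 0.0509). Rcor2 did not pass without replicate 1 or 2 at 4.5DDC (0.0583 and 0.132), replicate 2 or 3 at 5.5DDC (0.0571 and 0.0583) or replicate 1 or 2 at 6.5DDC (0.0811 and 0.138). In a fit of the 6 libraries compared none of the 3 passed (0.061 for Btg2, 0.0864 for St18 and 0.0712 for Rcor2). With library totals as the scale, St18 (0.0567) and Rcor2 (0.0536) did not pass, nor did Rcor2 with limma voom (0.0503) or limma on log2 FPKM (0.0797 and 0.0802), nor Btg2 with the replicate block (0.0558). Without replicate 1 at all time points, St18 and Rnd2 fell, Myt1 rose, and Btg2 and Rcor2 did not pass (0.0902 and 0.0593).

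**Figure D4:**
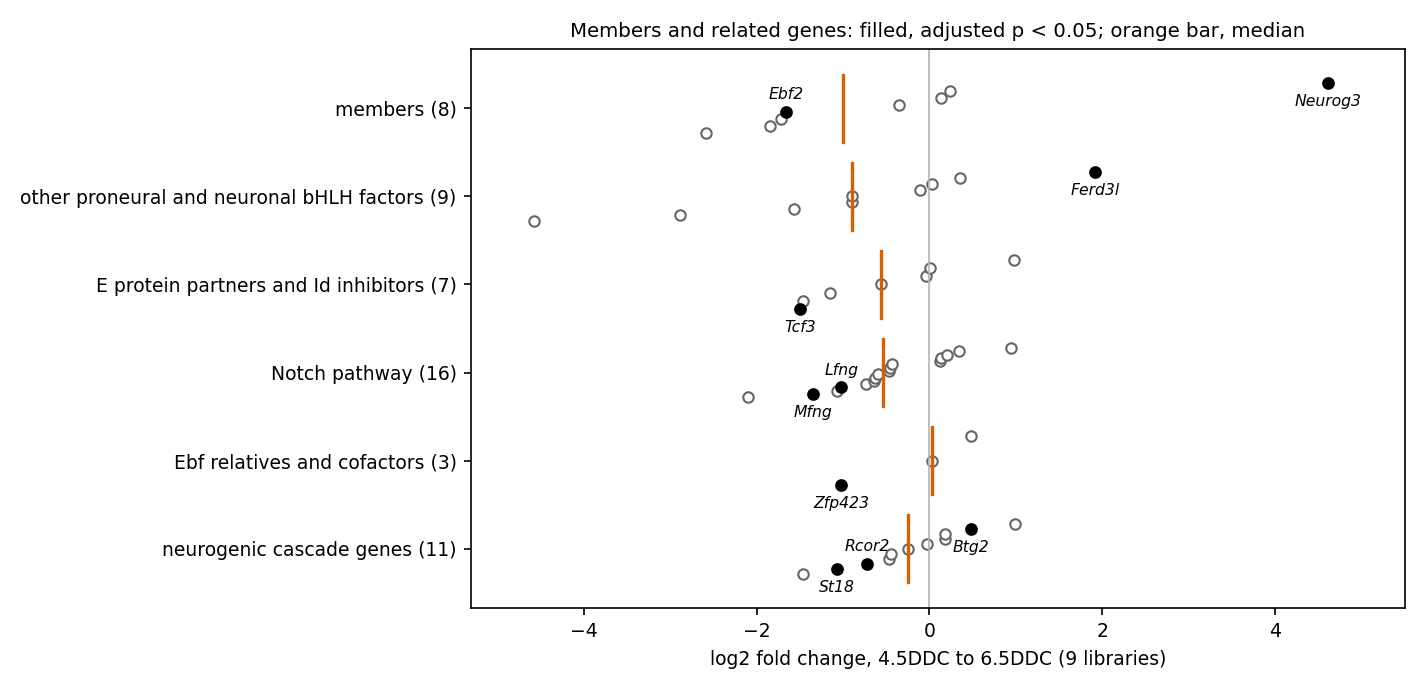
Log2 fold change from 4.5DDC to 6.5DDC for the 8 members tested and for the genes of 5 related lists, with the number tested in brackets, filled symbols where the adjusted p was under 0.05 and an orange bar at the median. Neurog3 (4.61), Ferd3l (1.92) and Btg2 (0.48) rose, and Ebf2, Tcf3, Lfng, Mfng, Zfp423, St18 and Rcor2 fell.

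Motor neurons and serotonergic neurons are known to arise in turn from ventral hindbrain progenitors. Of 9 motor neuron markers tested, Isl1 fell by 2.44 (SE 0.31, adjusted p = 0.00173) and Phox2a by 2.15 (SE 0.43, adjusted p = 0.01) from 4.5DDC to 6.5DDC, none rose, and the median was −1.33. In the fit without replicate 1, where 10 were tested, 7 fell and 1 rose. The gene that rose there was Slc5a7, a choline transporter, by 2.49 (adjusted p = 0.00241), and it did not pass with all libraries (adjusted p = 0.0897). Their summed level was 70.0, 134 and 98.4 FPKM at 4.5DDC, 32.3, 84.1 and 81.0 FPKM at 5.5DDC and 22.4, 51.8 and 53.3 FPKM at 6.5DDC. Like Neurod4, the list was lowest in replicate 1 at each time point.

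Of 8 serotonergic neuron markers 6 rose and 1 fell from 4.5DDC to 6.5DDC, with a median of 2.501. Fev, the factor that sets serotonergic identity, was at 0.0442 ± 0.0409 FPKM and 1.70 ± 0.725 FPKM and rose by 5.14 (SE 0.77, adjusted p = 0.00311). Slc18a2, a vesicular monoamine transporter, rose from 7.47 ± 4.34 FPKM to 43.6 ± 6.86 FPKM, by 2.54 (SE 0.37, adjusted p = 0.00273). The gene that fell was Ddc, which encodes an enzyme of monoamine synthesis, by 1.53 (SE 0.31, adjusted p = 0.0106). The list summed to 38.9, 29.5 and 27.4 FPKM at 4.5DDC, to 64.2, 49.7 and 48.2 FPKM at 5.5DDC and to 76.7, 64.8 and 79.4 FPKM at 6.5DDC. Unlike Neurog3, this sum was not lowest in replicate 1 at any time point. At 6.5DDC most of it was Slc18a2, at 50.9, 37.4 and 42.4 FPKM in replicates 1, 2 and 3. The sum at 6.5DDC thus says little of the other serotonergic markers. Of the others that rose, Gata3 did not pass without replicate 3 at 4.5DDC (0.0557) or replicate 2 at 6.5DDC (0.0608), and Tph2 did not pass without replicate 2 at 4.5DDC (0.0521).

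Of 15 general markers of postmitotic neurons tested, Map2 rose by 1.65 (SE 0.31, adjusted p = 0.00768) and Syt1 by 3.19 (SE 0.36, adjusted p = 0.00133) from 4.5DDC to 6.5DDC, none fell, and the median was 0.83. In the fit without replicate 1 the number that rose was 7. Of the 9 progenitor markers, Prom1 rose by 1.19 (SE 0.18, adjusted p = 0.00363), Sox3 fell by 1.803 (SE 0.49, adjusted p = 0.033), and the median was 0.20. Without replicate 1 at all time points, Prom1, Sox9 and Fabp7 rose and Sox3 fell. Sox3 did not pass without replicate 2 at 4.5DDC (0.125) or replicate 1 or 2 at 6.5DDC (0.0666 and 0.118), nor with limma voom (0.0673) or limma on log2 FPKM (0.0565 and 0.05003).

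Markers of other lineages were mostly at low levels. The 8 sensory ganglion markers summed to between 14.6 and 24.2 FPKM. Of 6 neural crest markers, 3 were tested and Ets1 fell by 0.61 (SE 0.18, adjusted p = 0.0398). Ets1 did not pass without replicate 1, 2 or 3 at 4.5DDC (0.0619, 0.126 and 0.0784), replicate 2 or 3 at 5.5DDC (0.0728 and 0.0578) or replicate 1, 2 or 3 at 6.5DDC (0.0757, 0.0594 and 0.0937), nor without replicate 1 at all time points (0.0511), nor with no filter (0.091), limma on log2 FPKM (0.0669 and 0.0799) or the 6 libraries compared (0.0938). Sox10, which defines crest cells, had at most 0.0186 FPKM as a mean of a time point. The 6 pluripotency markers summed to between 2.07 and 5.10 FPKM, most of it Klf4, and neither of the 2 tested passed. The part of these cell types in the values of the members was not tested.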

How the data were processed

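RNA of Prominin-1 sorted neural progenitors at 4.5DDC, 5.5DDC and 6.5DDC was analysed in 9 libraries, grouped by their titles. The authors mapped reads to GRCm38 with TopHat2 2.0.4 and counted them per gene with HTSeq 0.6.1. The deposited counts were treated as estimated counts, since 98 symbols were not whole, and were rounded. The authors computed FPKM with Cufflinks 2.1.1, and levels are given in these deposited FPKM. A deposited table of voom log2 values was not used.

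Genes passing filterByExpr (14742) were scaled by TMM and tested with edgeR 4.0.16 (quasi-likelihood, time point as factor) in R 4.3.3, with Benjamini-Hochberg adjustment over all genes and a threshold of 0.05. Alternatives used limma 3.58.1, DESeq2 1.42.0, other scalings and filters, a replicate block, and left-out libraries. Tables and plots used Python 3.11.15, pandas 2.3.3, numpy 2.4.6 and matplotlib 3.10.9. The procedure was tested on simulated data. The genes named are the 9 members, genes of 15 lists and, for each tested member, the 3 genes with the highest correlation of log2 CPM (prior count 2) among those whose highest time point averaged 2 FPKM or more. Members and lists were chosen with earlier results of these data known.

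Replicate numbers come from the titles. Within a time point, each library's difference from the group mean correlated between libraries of one number by 0.743, 0.386 and 0.452 for 4.5DDC with 5.5DDC and by 0.454, 0.367 and 0.197 for 5.5DDC with 6.5DDC. Each was above the limit of 0.1, so numbers were treated as pairing adjacent time points. Libraries of different numbers correlated by −0.653 to 0.390 and by −0.450 to 0.405, and replicates 2 and 3 were not told apart by these values. For 4.5DDC with 6.5DDC they were 0.383, −0.0396 and −0.215, and no pairing was assumed. Positions come from GENCODE M21. The limits given for a count of 0 (3 counts) cover counting error only.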

Additional observations from a re-analysis of the deposited data

How the results depend on the processing

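The alternatives changed the counts more than the directions of the called members. Neurog3 kept its direction from 4.5DDC to 6.5DDC in 20 of 20 alternatives and passed in 12, and Ebf2 kept its direction in 20 and passed in 15. Where a value differed between settings, the cause was not tested.

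From 4.5DDC to 6.5DDC the number of members that passed was 1 with limma voom (beside 2660 of 14742 genes), 1 with limma on log2(FPKM + 1) (2462), 1 with limma on log2(FPKM + 0.1) (2469), 1 with the 6 libraries compared (1937 of 14415) and 5 with the replicate block (3418 of 14742). The block added Neurod4 (−2.10, adjusted p = 0.0162), Neurog1 (−2.63, 0.0106) and Neurog2 (−1.89, 0.026). For any difference it was 1 with no filter (beside 1584 of 23118 genes), 2 with DESeq2 and 4 with the replicate block (Ebf2, Neurod4, Neurog1 and Neurog3). From 4.5DDC to 5.5DDC the number of genes that passed was 25 with no filter, 495 with DESeq2, 7 with limma on log2(FPKM + 1), 1 with the 6 libraries compared and 212 with the replicate block. From 5.5DDC to 6.5DDC it was 55 with library totals, 78 with no filter, 671 with DESeq2, 12 with limma on log2(FPKM + 1), 0 with limma on log2(FPKM + 0.1), 0 with the 6 libraries compared and 195 with the replicate block. For any difference it was 2976 with DESeq2 and 2180 with the replicate block.

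With libraries left out, including all of replicate 1, the number of members that passed ranged from 0 to 2 from 4.5DDC to 5.5DDC, from 0 to 1 from 5.5DDC to 6.5DDC, from 0 to 5 from 4.5DDC to 6.5DDC and from 0 to 5 for any difference. The number of genes ranged from 1 to 485, from 0 to 728, from 1125 to 4586 and from 323 to 3316 in the same order, and from 0 to 2 for the difference between the intervals.

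Signs turned for differences that passed in no setting, and ranges below are over the left-out libraries. For Neurod1 from 5.5DDC to 6.5DDC the log2 difference was −0.0085 with limma on log2(FPKM + 0.1) and ranged from −0.10 to 1.11. From 4.5DDC to 6.5DDC it was −0.36 with voom, −0.064 with log2(FPKM + 1), −0.37 with log2(FPKM + 0.1) and −0.21 with the replicate block, and ranged from −0.46 to 0.75. For Neurod4 from 5.5DDC to 6.5DDC it ranged from −0.82 to 0.049. For Ebf1 from 4.5DDC to 5.5DDC it was −0.21 with voom, −0.33 with log2(FPKM + 1), −0.40 with log2(FPKM + 0.1) and −0.13 with the replicate block, and ranged from −0.26 to 0.42. From 5.5DDC to 6.5DDC Ebf1 gave −0.019 with log2(FPKM + 1) and −0.075 with log2(FPKM + 0.1), and ranged from −0.28 to 0.50. From 4.5DDC to 6.5DDC it gave −0.35 and −0.47 in those fits and −0.031 with the replicate block, and ranged from −0.15 to 0.52. For Ebf3 from 5.5DDC to 6.5DDC it was −0.018 with voom, −0.057 and −0.077 in the FPKM fits and −0.0083 with the replicate block, and ranged from −0.20 to 0.37.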
